A study of Mus musculus with 9 samples.

Results

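The ELAVL genes Elavl1, Elavl2, Elavl3 and Elavl4 and the Musashi genes Msi1 and Msi2 are 6 of the 48526 genes in the count table of adult mouse neural stem cells (NSCs) entering differentiation. The members were found by the Ensembl identifiers that GENCODE gives to these symbols. The families were chosen from an earlier look at the same libraries, in which Elavl3 and Msi1 passed the threshold at 6 h against 0 h. The values of the members at 6 h are therefore given as a description, with no p-value. The cells were isolated from the subependymal zone (SEZ) of C57BL/6 mice (C57BL/6J in the study's methods, at 2 to 4 months of age), and were grown as neurospheres with EGF and FGF. Differentiation was started on an adhesive substrate without EGF, while FGF was kept. Cells were collected before this change (0 h) and 1 h or 6 h after it, with 3 replicates at each time point. No cells carried a transgene or a deletion per the labels. All 6 members passed the filter on low counts, and 18858 genes were tested in all.

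ELAVL proteins (Hu proteins) bind U-rich and AU-rich stretches of mRNAs, mostly in their 3′ untranslated regions and introns, and are known to stabilise these mRNAs or to alter their splicing and translation. Elavl1 (HuR) is made in nearly all cells, whereas Elavl2 (HuB), Elavl3 (HuC) and Elavl4 (HuD) are best known from neurons, where antibodies to HuC and HuD are used as markers of newborn neurons. Musashi proteins bind short UAG motifs and are known as translational regulators of neural stem and progenitor cells, with Numb mRNA as the classical target.

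The members are paralogues that carry the same kind of RNA-binding domain, the RNA recognition motif. The codons of RNP1, the conserved stretch of this domain that touches RNA, are shown so that the paralogues can be compared base by base at the same site. The 24 bases below are the codons of the 2 matches to a search pattern for RNP1 in each coding sequence, in GENCODE M21 on GRCm38, written 5′ to 3′ on the coding strand. The matches are those of the first and last RNA recognition motif. Any motif between these did not match the pattern and is not shown. Capitals mark the bases that differ from Elavl3 in the ELAVL genes and from Msi1 in Msi2.
Elavl3, first match, chr9:22036384-22036407 (minus strand): ctgggctatgggtttgtgaactac
Elavl1, first match, chr8:4304999-4305022 (minus strand): TtgggctaCggTtttgtgaactaT
Elavl2, first match, chr4:91281286-91281309 (minus strand): TtgggTtaCggAtttgtgaactac
Elavl4, first match, chr4:110226617-110226640 (minus strand): TtAggGtatggAtttgtTaactaT
Elavl3, second match, chr9:22018611-22018634 (minus strand): aagggtttcggcttcgtcaccatg
Elavl1, second match, chr8:4289705-4289728 (minus strand): aaAggGttTggTttTgtGaccatg
Elavl2, second match, chr4:91253348-91253371 (minus strand): aaAggtttTggAttTgtGacTatg
Elavl4, second match, chr4:110206440-110206463 (minus strand): aagggAttcggcttcgtcaccatg
Msi1, first match, across an exon junction on the plus strand of chromosome 5: aggggtttcggcttcgtcactttc
Msi2, first match, across an exon junction on the minus strand of chromosome 11: agAggCttcggTttcgtcacCttc
Msi1, second match, across an exon junction on the plus strand of chromosome 5: agagggtttggatttgtcacgttt
Msi2, second match, across an exon junction on the minus strand of chromosome 11: agagggtttggCtttgtcacCttt

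In the first match Elavl4 differed from Elavl3 at 6 bases of 24, and Elavl1 and Elavl2 at 4 each. The order was the other way round in the second match, with 1 base for Elavl4 and 6 each for Elavl1 and Elavl2. Msi2 differed from Msi1 at 4 bases in the first match and at 2 in the second. Over the whole coding sequence, Elavl3 and Elavl4 were the closest ELAVL pair with 73.9% identical bases, and Elavl1 and Elavl4 the most distant with 60.2%. Msi1 and Msi2 shared 67.1%. The longest identical run between transcripts was 29 bases within the ELAVL family (Elavl3 and Elavl4) and 44 bases between Msi1 and Msi2, and the study's libraries had longer reads. Exons of 2 members overlapped other genes. Elavl1 shared 204 bases of exon with Ccl25 (ENSMUSG00000023235), a chemokine gene on the opposite strand, which had 7094 counts over the 9 libraries. Elavl3 shared 256 bases with Gm49318 (ENSMUSG00000111842) on the same strand, which was not analysed here. The kit was labelled as stranded, but the strand setting of the counting is not given in the sources used here, so reads of Elavl1 and Ccl25 in the shared part cannot be told apart.

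The authors deposited raw counts of reads per gene, and the libraries held between 65871454 and 105592597 counts. The lowest count of a member in any library was 283, for Elavl4. Levels are given as CPM, the usual unit of counts relative to library size, with the size scaled by the TMM method, whose factors were between 0.972 and 1.017. The labels do not state whether replicates came from separate cultures or animals, so p-values measure only the spread between these libraries. The libraries were RNA of whole cultures, in which fewer cells of a type and less RNA per cell cannot be told apart. The markers of NSCs were present, with all 12 listed genes at a mean of at least 1 CPM, although Gfap was only near that level (1.31 CPM at 0 h) and Nes was at 1990 CPM. Replicate numbers paired the libraries, as the correlation of their deviations showed, and results of a model that also held the replicate number (the block) are given beside those with time point only where the calls differed.

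Divided by the length of exon, the most abundant member was Msi2, with 26.3 ± 0.439 CPM per kb (SD, n = 3) at 0 h. Elavl1 followed with 12 ± 0.524 CPM per kb and Msi1 with 7.81 ± 0.449 CPM per kb (SD, n = 3 each). The neuronal ELAVL genes were lower, with 3.18 ± 2.76 CPM per kb for Elavl4, 2.47 ± 0.176 for Elavl2 and 1.33 ± 0.179 for Elavl3 (SD, n = 3 each). Elavl4 and Elavl2 overlapped at 0 h, and all other neighbours in this order were apart in all 3 replicates. The same order was found at 1 h. At 6 h Msi1, with 12.3 ± 1.19 CPM per kb, stood above Elavl1, with 10.5 ± 0.356 CPM per kb (SD, n = 3 each), and the replicates of the pair did not overlap. The 3 neuronal ELAVL genes overlapped at 6 h, with 2.94 ± 2.84 CPM per kb for Elavl4, 2.44 ± 0.388 for Elavl3 and 2.19 ± 0.195 for Elavl2 (SD, n = 3 each). With the length of the longest transcript in place of all exons, Msi1 was again above Elavl1 at 6 h (22.7 against 19.0 CPM per kb) and below it at 0 h (14.4 against 21.6). With that length Elavl2 was above Elavl4 at 0 h (4.90 against 4.13 CPM per kb) and above Elavl3 at 6 h (4.35 against 3.35), the reverse of the order by all exons.

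**Figure D1:**
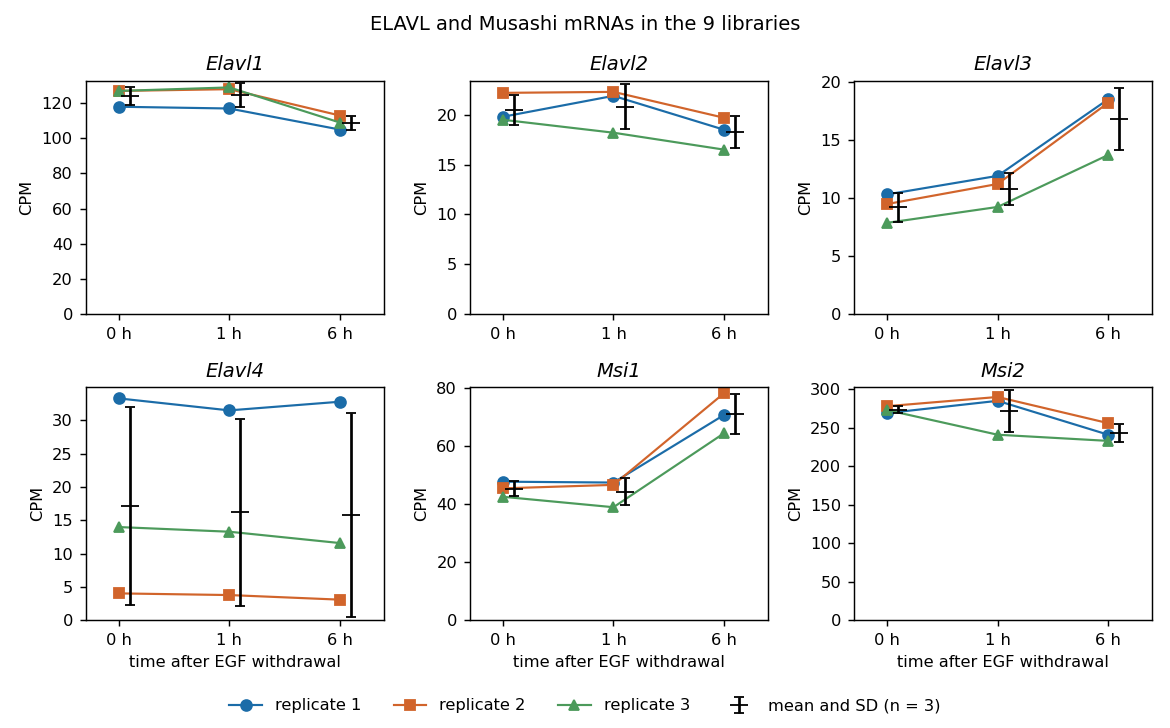
CPM of each member (y axis, from 0) at 0, 1 and 6 h (x axis), with 1 line per replicate number and the mean and SD of 3 replicates in black. Elavl3 and Msi1 are higher at 6 h in all 3 replicates, while the lines of Elavl4 stay far apart, near 33, 13 and 4 CPM.

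The first hour of differentiation was compared with 0 h to ask how early these genes respond. The 1 h libraries were not used to choose the members, but the 0 h libraries were, so the values of Elavl3 and Msi1 are again given without p-values and are not independent of that choice. None of the 6 members passed the threshold at 1 h, either in the edgeR fit with time point only, which called 0.0424% of all tested genes, or with the replicate block, which called 3.51%. DESeq2 also called none of them, with or without the block. An unadjusted p under 0.05 was found for 0 of the 6 with time point only, beside 735 of all 18858 genes tested. With the block it was found for 1 of the 6, beside 3438 of all genes, so nothing is read from this count. The level of Elavl3 was 10.3, 9.47 and 7.85 CPM at 0 h and 11.9, 11.2 and 9.22 CPM at 1 h in replicates 1, 2 and 3. The groups overlapped, but each replicate was higher at 1 h than at 0 h, by a log2 ratio of 0.21, 0.25 and 0.23. The log2 fold change of Elavl3 at 1 h was 0.23 with a standard error of 0.17 with time point only, and 0.23 with a standard error of 0.07 under the block.

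The other members differed less between 1 h and 0 h. With the block, their log2 fold changes were 0.01 for Elavl1 (standard error 0.05), 0.02 for Elavl2 (0.06), -0.08 for Elavl4 (0.08), -0.03 for Msi1 (0.06) and -0.01 for Msi2 (0.06). The adjusted p-values by edgeR with the block were 0.950 for Elavl1, 0.922 for Elavl2, 0.649 for Elavl4 and 0.932 for Msi2, and all were 1 without the block. Elavl4 was lower at 1 h in 3 of 3 replicates by a log2 ratio of -0.08, -0.09 and -0.07, and the direction of the other 4 was mixed between replicates.

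**Figure D2:**
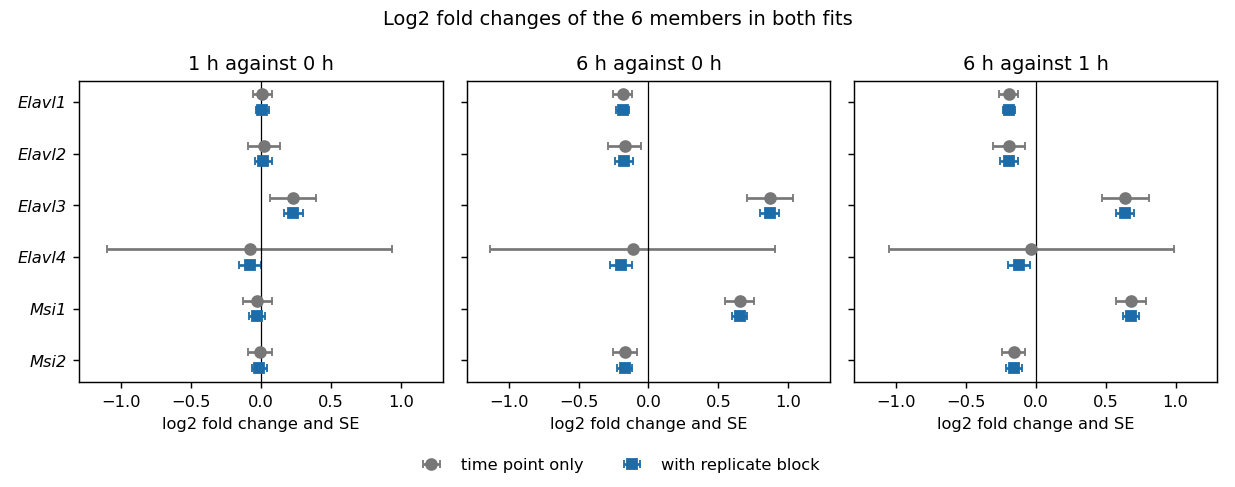
Log2 fold change (x axis) and standard error of each member (y axis) in the 3 comparisons, with time point only (grey circles) and with the replicate block (blue squares). Elavl3 and Msi1 lie to the right of 0 at 6 h, and the bars of Elavl4 shrink from 1.02 to 0.08 with the block.

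At 6 h Elavl3 and Msi1 were higher than at 0 h in 3 of 3 replicates, and each of the other 4 members had a mean log2 ratio below 0, although neither fit called Elavl4. The fit with time point only called 2 of the 6 members at 6 h against 0 h, Elavl3 and Msi1, where it called 2.42% of all genes. The fit with the block called 5 of the 6 where it called 34.9% of all genes, the same pair as higher and Elavl1, Elavl2 and Msi2 as lower. Nothing is read from these counts, since the members were chosen from this comparison. Leaving out a single library of 0 h or of 6 h lowered the count to 0. It was 1 without replicate 1 or 2 of the 1 h group, and 2 without replicate 3 of that group. With the block it was 2 without replicate 1, 2 without replicate 2 and 4 without replicate 3.

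Elavl3, which encodes HuC, had 18.5, 18.2 and 13.7 CPM at 6 h in replicates 1, 2 and 3, against 10.3, 9.47 and 7.85 CPM at 0 h. All 6 h libraries lay above all 0 h and 1 h libraries, and replicate 3 was the lowest at each time point. The mean went from 9.20 ± 1.24 CPM at 0 h to 10.8 ± 1.38 at 1 h and 16.8 ± 2.67 at 6 h (SD, n = 3 each). Within replicates the level at 6 h was between 1.75 and 1.92 times that at 0 h. The log2 fold change was 0.87, with a standard error of 0.17, or 0.07 with the block, and it was between 0.77 and 1.00 when a library was left out. Against 1 h it was 0.64, with log2 ratios of 0.64, 0.69 and 0.57 in replicates 1, 2 and 3.

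The region before the start of Elavl3 is shown because it held a match to each of 3 promoter elements that were searched on both strands. These were the E-box CAGCTG, the letters TATAAA and the letters CCAAT, in capitals below, and they do not overlap. The sequence is from RefSeq on GRCm38.p6, the 250 bases upstream of the start, at chr9:22052024-22052273 on the minus strand, with a GC content of 61.6%.
Elavl3 upstream: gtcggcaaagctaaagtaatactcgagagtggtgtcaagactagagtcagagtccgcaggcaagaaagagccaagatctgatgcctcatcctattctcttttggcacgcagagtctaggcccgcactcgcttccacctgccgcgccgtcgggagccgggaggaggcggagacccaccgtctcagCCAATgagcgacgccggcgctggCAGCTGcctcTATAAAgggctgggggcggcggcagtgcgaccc

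Windows were found for 5 of the members, 15 windows in all, and TATAAA was in this one alone. Matches of CAGCTG were also in 2 windows of Elavl4. Of all 32851 windows of the same length, 13.0% held CAGCTG, 12.4% held TATAAA and 33.8% held CCAAT. A match of letters is a description and not a binding site.

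Msi1, the Musashi gene best known as a marker of neural stem cells, had 47.8, 45.5 and 42.6 CPM at 0 h in replicates 1, 2 and 3. It had 47.5, 46.7 and 39.0 CPM at 1 h, and 70.8, 78.3 and 64.5 CPM at 6 h. The levels at 0 h and 1 h overlapped, and all 6 h libraries lay above them. Within replicates the level at 6 h was between 1.48 and 1.72 times that at 0 h. The log2 fold change was 0.65 with a standard error of 0.10, or 0.06 with the block, and it was between 0.59 and 0.72 when a library was left out. With GC and length trends removed it was 0.53, with or without the block, and the fit without the block no longer called Msi1. Against 1 h the log2 fold change was 0.68.

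Msi2, its paralogue, had 269, 278 and 273 CPM at 0 h in replicates 1, 2 and 3. It had 285, 290 and 241 CPM at 1 h and 241, 256 and 233 CPM at 6 h. The 6 h libraries lay below those of 0 h but overlapped those of 1 h, where replicate 3 was low. The log2 fold change at 6 h against 0 h was -0.17, with a standard error of 0.08, or 0.05 with the block.

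The ratio of the Musashi genes within a library does not depend on how libraries are scaled, but GC and length trends were not removed from it. Msi1 had 17.7, 16.3 and 15.6 counts per 100 Msi2 counts at 0 h in replicates 1, 2 and 3. The ratio was 16.7, 16.1 and 16.2 at 1 h and 29.3, 30.6 and 27.7 at 6 h. The mean was thus 16.5 ± 1.07, 16.3 ± 0.321 and 29.2 ± 1.45 counts per 100 (SD, n = 3 each), and the 6 h libraries lay above all others. Per kb of exon, Msi1 was at 29.7 ± 1.93 per 100 Msi2 at 0 h and 52.4 ± 2.56 per 100 at 6 h (SD, n = 3 each), so Msi2 was the more abundant gene in all 9 libraries.

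**Figure D3:**
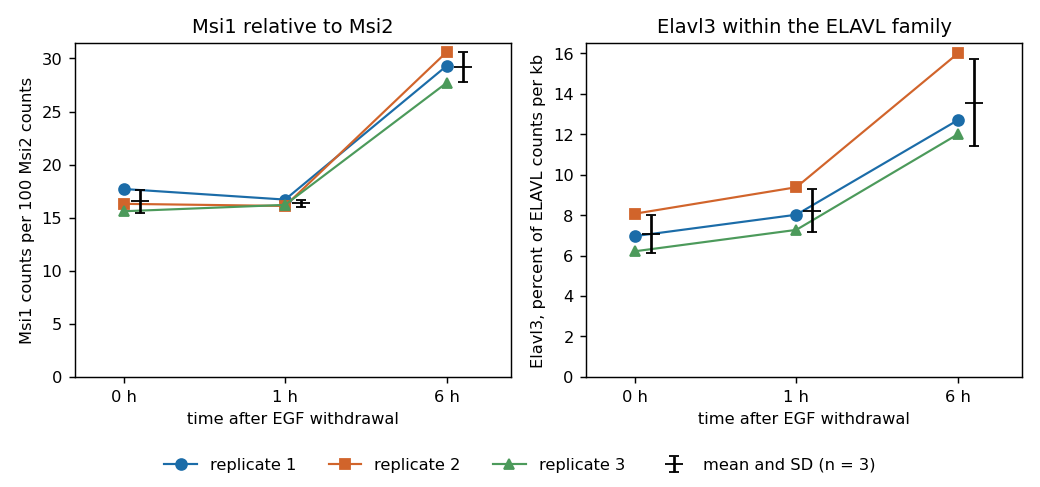
Left, Msi1 counts per 100 Msi2 counts, and right, Elavl3 as percent of the ELAVL counts per kb of exon (y axes, from 0), at 0, 1 and 6 h (x axes), with 1 line per replicate number and the mean and SD in black. Both values are higher at 6 h in 3 of 3 replicates, from 16.5 to 29.2 per 100 and from 7.08% to 13.6%.

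Elavl1, which encodes the broadly expressed HuR, had 118, 127 and 127 CPM at 0 h, 117, 128 and 129 CPM at 1 h and 105, 113 and 109 CPM at 6 h in replicates 1, 2 and 3. The levels at 6 h lay below those at both earlier times without overlap. The log2 fold change at 6 h against 0 h was -0.18, with a standard error of 0.07, or 0.05 with the block, and the log2 ratios of the replicates were -0.16, -0.17 and -0.22. Elavl2, which encodes HuB, had 19.8, 22.2 and 19.5 CPM at 0 h, 21.9, 22.3 and 18.2 CPM at 1 h and 18.5, 19.7 and 16.5 CPM at 6 h. Its groups overlapped, although each replicate was lower at 6 h than at 0 h, by a log2 ratio of -0.10, -0.17 and -0.24. Its log2 fold change was -0.17 with a standard error of 0.12, or 0.06 with the block. It was called with the block in the fit of all libraries, but not when any 1 replicate number was left out of that fit.

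Elavl4, which encodes HuD, was the member in which replicates differed most. It had 33.3, 4.05 and 14.0 CPM at 0 h in replicates 1, 2 and 3. It had 31.5, 3.80 and 13.3 CPM at 1 h and 32.8, 3.11 and 11.6 CPM at 6 h. Replicate 1 was thus the highest and replicate 2 the lowest at each time point, 8.22-fold apart at 0 h, 8.28-fold at 1 h and 10.5-fold at 6 h. For the other members the highest replicate was at most 1.35 times the lowest at any time point. The log2 fold change of Elavl4 at 6 h against 0 h was -0.11 with a standard error of 1.02, and -0.20 with a standard error of 0.08 with the block. It was between -1.22 and 0.81 when a library was left out. The log2 ratios of the replicates were -0.02, -0.38 and -0.27, and neither fit called the gene.

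The comparison of 6 h with 1 h shared the 6 h libraries with the one from which the members were chosen, so it is also given without p-values. The fit with time point only called 1 member, Msi1, and 2.14% of all genes, and the fit with the block called 5 of the 6 and 35.6% of all genes. The 5 genes were those called with the block at 6 h against 0 h, in the same directions. Msi1 lost its call without the block, and the count became 0, when a single library of 1 h, or replicate 1 or 2 of the 6 h group, was left out. With the block the count was 3 without replicate 1, 2 without replicate 2 and 5 without replicate 3.

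Within the ELAVL family, Elavl1 had the largest share of the counts per kb in all 9 libraries, between 48.0% and 71.8%. Elavl3 gave 6.96%, 8.07% and 6.21% at 0 h in replicates 1, 2 and 3. It gave 8.02%, 9.38% and 7.27% at 1 h and 12.7%, 16.0% and 12% at 6 h, and the 6 h libraries lay above all others. The mean share was 7.08 ± 0.936% at 0 h, 8.22 ± 1.07% at 1 h and 13.6 ± 2.14% at 6 h (SD, n = 3 each). The share of Elavl4 depended on the replicate, with 28.9%, 4.41% and 14.1% at 0 h and 28.8%, 3.51% and 12.9% at 6 h. Elavl4 therefore stood above Elavl3 in replicates 1 and 3 and below it in replicate 2 at every time point. In counts not divided by length, Elavl4 was below Elavl3 in replicate 3 at 6 h (7.70% against 9.11%). Elavl2 was between 10.5% and 15.7% in all libraries.

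**Figure D4:**
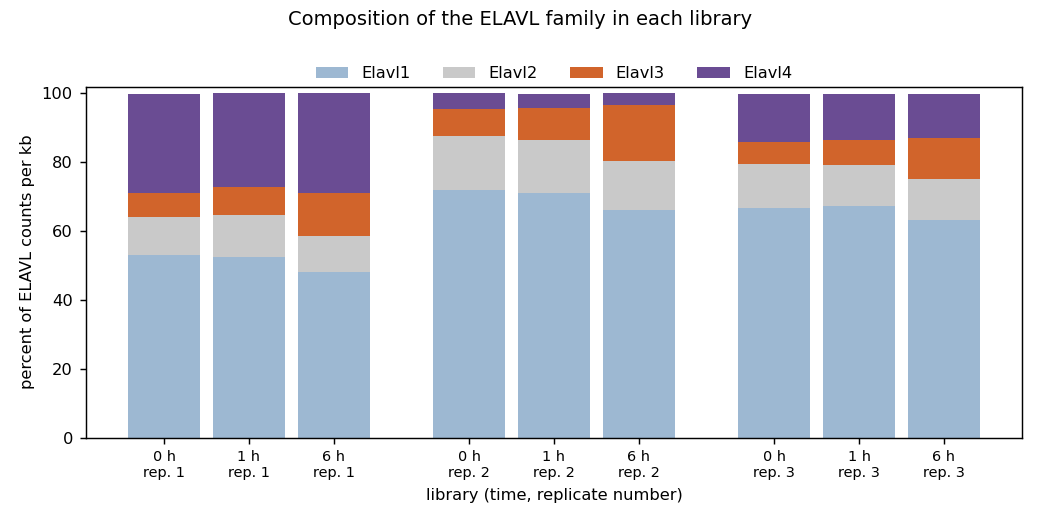
Share of each ELAVL gene in the summed ELAVL counts per kb of exon (y axis, percent), with 1 stacked bar per library grouped by replicate number (x axis). The share of Elavl3 is largest at 6 h in each replicate, and the share of Elavl4 is near 28% in replicate 1 and near 4% in replicate 2.

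The sum of squares of log2 CPM over the 9 libraries was split into time point, replicate number and the rest. Time point took 89.7% for Msi1, 81.7% for Elavl3 and 73.4% for Elavl1, against a median of 26.9% over all genes tested, and the first 2 values are set by the choice of the members. Time point took 48.9% for Msi2 and 37.9% for Elavl2. For Elavl4 it took 0.5%, and replicate number took 99.2%, against a median of 48.9% over all genes. The SD of the means of the 3 replicate numbers was 1.58 on the log2 scale for Elavl4, and 247 of the tested genes had a larger one. This SD was 0.21 for Elavl3, near the median of 0.20 over all genes, and between 0.06 and 0.12 for the other 4 members.

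**Figure D5:**
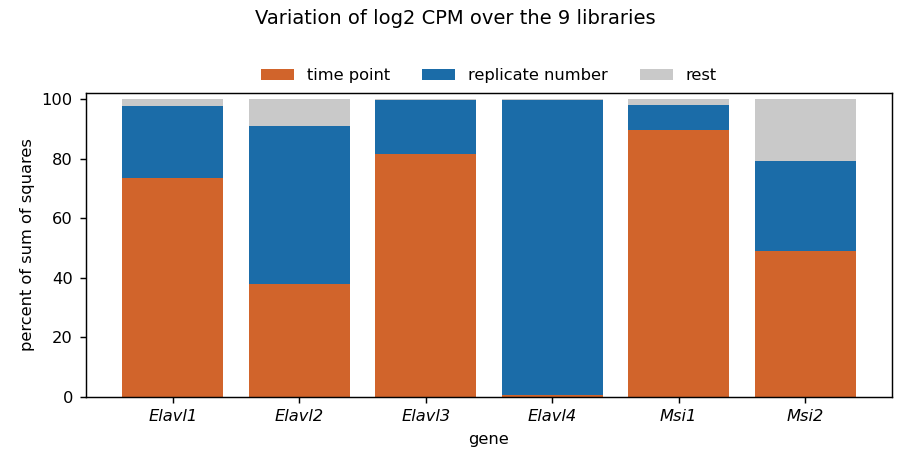
Percent of the sum of squares of log2 CPM over 9 libraries (y axis) that lay between time points, between replicate numbers and in the rest, for each member (x axis). Elavl4 stands apart with 99.2% between replicate numbers, and Msi1 has the largest part between time points, 89.7%.

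Genes with the most similar course were ranked by Pearson's r of log2 CPM over the 9 libraries after removal of the mean of each replicate number, among 13604 genes with a mean of at least 1 CPM. These values are a description, since the points share libraries and time points. For Elavl3 the nearest genes were Coro7, Wdr66 and Acsl3 (r = 0.997 each), of which Acsl3, a long-chain acyl-CoA synthetase gene, went from 192 CPM at 0 h to 228 at 1 h and 361 at 6 h. For Msi1 they were Mfsd6 (0.999), Cul7 and Snrk (0.998 each). Mfsd6, a membrane protein gene, was at 16.8, 15.8 and 29.3 CPM at 0, 1 and 6 h. For Elavl1 they were the chemokine gene Cxcl14 (0.998) and the ubiquitin ligation genes Arih2 and Ube2d2a (0.996 each). For Elavl2 they were Gm6501 (0.992), Atp2c1 (0.984) and Abcc1 (0.983), for Msi2 the chromatin remodelling gene Arid1b (0.990), Pdpk1 and Ppm1l (0.987 each), and for Elavl4 Gm9892 (0.993), Aida (0.984) and Fam83d (0.979). Without removal of the replicate means, 2 of the 3 genes remained for Msi2 and 0 of 3 for each of the other members.

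Other proteins that bind AU-rich elements compete or act with ELAVL proteins on the same mRNAs, and 10 of their genes were tested. At 1 h edgeR without the block called none (2 at an unadjusted p under 0.05, beside 735 of all 18858 genes, and DESeq2 called 2). With the block 2 were higher and 1 lower, beside 3.51% of all genes called. The higher genes were Zfp36, which encodes the mRNA decay factor tristetraprolin, and its relative Zfp36l1. Zfp36 went from 2.73 ± 0.388 CPM at 0 h to 6.06 ± 0.0353 at 1 h (SD, n = 3 each). With the block this was a difference of 1.15 on the log2 scale (edgeR, adjusted p = 6.7e-05, against 0.0604 with time point only). Zfp36l1 went from 16.5 ± 0.188 CPM to 25.0 ± 2.65 at 1 h and 23.3 ± 1.55 at 6 h (SD, n = 3 each). With the block, it differed at 1 h by 0.59 on the log2 scale (edgeR, adjusted p = 0.000333, against 0.210 with time point only), and with time point only at 6 h by 0.50 (edgeR, adjusted p = 0.0445). That call was kept in 1 of 9 fits that each lacked a library, the one without replicate 3 of 1 h (edgeR, highest adjusted p 0.159). Zfp36l1 was the only gene of this list that edgeR called at 6 h without the block. An unadjusted p under 0.05 was found for 5, beside 3373 of all genes, and DESeq2 without the block called 3. With the block 3 were higher and 4 lower, beside 34.9% of all genes. Of these, Tia1 was called in 1 of 3 block fits that each lacked a replicate number, and Hnrnpd and Hnrnpab in 2 of 3. The median log2 fold change of the list was -0.04 at 1 h and 0 at 6 h, beside 0 over all genes tested.

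Of 32 other RNA-binding protein genes known from the nervous system 31 were tested. Without the block edgeR called none at 1 h (0 at an unadjusted p under 0.05, and DESeq2 called 0) or at 6 h (5 at an unadjusted p under 0.05, and DESeq2 called 4). With the block 1 was higher at 1 h, Cpeb2, a cytoplasmic polyadenylation factor gene (0.39 on the log2 scale, edgeR adjusted p = 0.00736 with the block, and 1 without). This call was lost without replicate 1 or replicate 2 (edgeR, adjusted p of up to 0.095). The block called 3.51% of all genes at 1 h. At 6 h, 3 were higher and 12 lower with the block, which called 34.9% of all genes (3282 higher and 3299 lower), and the median log2 fold change was -0.13 without the block. Of the lower genes, Nova1, Qk and Cpeb1 were called in 0 of 3 block fits that each lacked a replicate number. Khdrbs1, Khdrbs3, Fmr1 and Fxr1 were called in 1 of 3, and the other called genes of this list in 3 of 3. The smallest p-values were those of Igf2bp2, an mRNA-binding protein gene of progenitors (-0.64, adjusted p = 8.8e-06 by edgeR with the block, and 0.829 without), and Cpeb3 (0.79, adjusted p = 2.0e-05 with the block by edgeR, and 0.0615 without). Igf2bp2 had 29.8 ± 28.5 CPM at 0 h (SD, n = 3), so its replicates also lay far apart.

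Among 22 mRNAs known as ELAVL targets 21 were tested. At 1 h edgeR without the block called none (2 at an unadjusted p under 0.05, beside 735 of all 18858 genes, and DESeq2 called 1). With the block 3 were higher and 1 lower, beside 3.51% of all genes called. Of the higher genes, Bdnf lost its call without replicate 1 or replicate 2 (edgeR with the block, adjusted p of up to 0.101). Cdkn1a lost its call without replicate 2 (edgeR with the block, adjusted p = 0.082). The smallest p-values belonged to Ptgs2, the cyclooxygenase gene with a classical AU-rich element, and Myc. Ptgs2 went from 0.177 ± 0.0471 CPM at 0 h to 1.25 ± 0.178 at 1 h and 0.229 ± 0.0966 at 6 h (SD, n = 3 each). The difference at 1 h was 2.81 on the log2 scale with the block (edgeR, adjusted p = 0.00019, against 0.0746 with time point only). Myc went from 109 ± 7.78 to 76.0 ± 12.7 CPM at 1 h (SD, n = 3 each), and its log2 fold change with the block was -0.53 (edgeR, adjusted p = 0.00241, against 0.775 with time point only). At 6 h the only call by edgeR without the block was the lower Mcl1, a survival gene of the BCL2 family. An unadjusted p under 0.05 was found for 6 targets, beside 3373 of all genes, and DESeq2 without the block called 4. Mcl1 fell from 258 ± 11.4 to 183 ± 5.81 CPM (SD, n = 3 each), or by 0.49 on the log2 scale (edgeR, adjusted p = 0.0249). Mcl1 kept this call in 2 of 9 fits that each lacked a library, those without replicate 2 or 3 of 1 h (edgeR, highest adjusted p 0.118). With the block, and beside the 34.9% of all genes called, 3 targets were higher and 9 lower at 6 h, and the median of the list was -0.12 without it (-0.01 at 1 h).

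Both mRNAs listed as Musashi targets, Numb and Cdkn1a, were tested, and the median of their log2 fold changes was 0.16 at 1 h and 0.35 at 6 h. Numb, which encodes an inhibitor of Notch signalling, had 34.6 ± 7.83 CPM at 0 h, 34.9 ± 8.81 at 1 h and 52.1 ± 7.73 at 6 h (SD, n = 3 each). With the block it was higher at 6 h by 0.61 on the log2 scale (edgeR, adjusted p = 1.5e-05, against 0.225 with time point only). Cdkn1a, which encodes the cell cycle inhibitor p21, was higher at 1 h with the block (0.30, adjusted p = 0.00249 by edgeR, and 1 without), at 617 ± 125 CPM against 502 ± 105 CPM at 0 h (SD, n = 3 each). The call of Cdkn1a was lost without replicate 2 (edgeR, adjusted p = 0.082).

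Markers of cell types were compared beside the neuronal ELAVL genes. The summed CPM of 11 neuroblast and neuron markers, which do not include the members, was between 1870 and 2540 at 0 h, 1840 and 2570 at 1 h, and 1870 and 2630 at 6 h. Its largest parts were Map2 (1130 CPM at both 0 h and 6 h) and Gap43 (514 and 505 CPM). The sum therefore cannot show changes of the markers at low levels. Without the block edgeR called none of the 11 at 6 h (3 at an unadjusted p under 0.05, and DESeq2 called 1). With the block 5 were higher (Snap25, Syt1, Tubb3, Nsg2 and Rbfox3) and none was lower, beside 34.9% of all genes called. Without the block, 7 of the 11 had a log2 fold change above 0 and 4 had one below 0. Snap25 was not called without replicate 2 (edgeR with the block, adjusted p = 0.0976). From 0 h to 6 h the means went from 22.8 to 70.3 CPM for Syt1, 22.9 to 32.1 for Nsg2 and 3.76 to 7.83 for Tubb3. They went from 2.37 to 5.48 CPM for Rbfox3 and 1.81 to 2.55 for Snap25. Dcx, the marker of neuroblasts, had a mean of 1.08 CPM at 0 h and 0.811 CPM at 6 h. It was lower at 6 h in replicates 1 and 3 and higher in replicate 2 (0.635 and 0.902 CPM). Neither fit called Dcx (edgeR, adjusted p = 0.693, or 0.291 with the block). The NSC markers summed to between 7980 and 9530 CPM at 0 h and between 7180 and 8900 at 6 h. Of these 12 markers 5 were higher and 3 lower with the block, beside the same 34.9% of all genes.

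Astrocyte markers summed to between 328 and 427 CPM at 0 h and 366 and 442 at 6 h, with 1 of 5 higher with the block. Those of oligodendrocyte progenitors summed to between 1690 and 2290 at 0 h and 2160 and 2510 at 6 h, with 4 of 5 higher with the block, and those of oligodendrocytes to between 48.6 and 83.1 and between 66.1 and 117, with 2 of 4 tested higher. Ependymal markers summed to between 45.6 and 86.7 CPM at 0 h and 37.2 and 59.1 at 6 h, with 2 tested and both lower with the block. Microglial markers summed to at most 0.526 CPM and endothelial markers to at most 4.24 CPM in any library, and Cldn5 had no count at 0 h or 1 h. The part of these cell types in the values of the members was not tested.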

How the data were processed

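The authors sequenced paired-end mRNA reads of 9 libraries, aligned them with STAR 2.5.3a to mm10 (GRCm38), checked them with FastQC, and deposited raw counts per Ensembl gene. Their tests used DESeq2 1.22.1. The members and lists were chosen with earlier results of these data known. Of 48526 identifiers, 48144 were found in GENCODE M21, and total counts per library were between 65871454 and 105592597.

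Genes were kept with filterByExpr of edgeR 4.0.16 (minimum count 10, total 15) in R 4.3.3 and scaled with TMM. All libraries were fitted together with glmQLFit and glmQLFTest, with Benjamini-Hochberg adjustment over 18858 genes and a threshold of 0.05. Standard errors were derived from the F statistic. Log2 CPM had a prior count of 2. The fits were tested on simulated data. Replicate numbers come from the labels, which do not state what they share. Deviations from the time point means correlated between 0.733 and 0.800 in 9 pairs of libraries with the same number, and between -0.462 and -0.314 in 18 other pairs, so the numbers pair the samples.

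Alternatives were the replicate block, DESeq2 1.42.0 with and without it, RLE scaling, library totals, other filters, fits of 6 libraries, an adjusted p under 0.01, removal of GC and length trends (natural splines with 4 degrees of freedom in R, used as offsets in edgeR), other gene lengths, and leaving out each library. Leaving out a replicate number from the block fit, leaving out libraries for the list genes, and the length of the longest transcript, were alternatives chosen after seeing the data. Named are the members, the genes of each list called without the block or else up to 2 with the smallest p with the block, the 3 nearest genes of each member, and genes that share exons with a member. Markers called with the block, and Gfap, Nes, Dcx, Map2, Gap43 and Cldn5, were named after their values were seen. So were Bdnf and the RNA-binding protein genes whose calls were lost when a replicate number was left out. Values were tabulated with pandas 2.3.3 and numpy 2.4.6, sequences were aligned with biopython 1.88 and plots drawn with matplotlib 3.10.9 (Python 3.11.15). Protein sequences were not used here.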

Additional observations from a re-analysis of the deposited data

How the results depend on the processing

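The number of members called at 1 h against 0 h was 0 in all fits except that with the replicate block and GC and length trends removed, which called 1 (Elavl3). At 6 h against 0 h, 2 were called beside 2.42% of all genes, and the replicate block gave 5 beside 34.9% of all genes. DESeq2 with the block gave 4, no filter on low counts 1, removal of GC and length trends 1, the trends removed with the block 3, only the 6 libraries compared 1, and an adjusted p under 0.01 gave 0. Leaving out a library or, with the block, a replicate number gave between 0 and 4. At 6 h against 1 h, 1 was called beside 2.14% of all genes, and the replicate block gave 5 beside 35.6% of all genes. DESeq2 gave 2, DESeq2 with the block 5, the trends removed 0, the trends removed with the block 5, only the 6 libraries 0, an adjusted p under 0.01 gave 0, and leaving out gave between 0 and 5. The shares of all genes under the other fits are not given here, and nothing is read from these counts. The fold changes of Elavl3 and Msi1 at 6 h against either time, and those of Elavl1, Elavl2 and Msi2, kept their direction in all 23 alternatives. Direction changed only in values near 0 or in Elavl4, and none of those values was past the threshold. At 1 h, Elavl1 was -0.01 with library totals and between -0.03 and 0.06 when a library was left out. Msi2 was 0.07 with the trends removed, with or without the block, and between -0.06 and 0.08 with libraries left out. With the block and without replicate 3, Msi1 was 0.02 and Msi2 0.07, and without replicate 1 Elavl2 was -0.04. The ranges with a library left out were -0.04 to 0.11 for Elavl2, -0.07 to 0.06 for Msi1 and -1 to 0.85 for Elavl4. Elavl4 was between -1.22 and 0.81 at 6 h against 0 h and between -1.14 and 0.89 against 1 h, where library totals gave 0.01. The cause of these changes was not tested.

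Msi1 per 100 Msi2 was 29.7, 29.3 and 52.4 at 0, 1 and 6 h per kb of exon. The Elavl3 share of the family was 5.38%, 6.25% and 10.5% without length, and 5.66%, 6.57% and 11.0% with the longest transcript. The lowest count of a member in a library was 283, and whether depth limited the precision was not tested.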
